A study of Mus musculus with 80 samples.

Results

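The genes described here are 10 components of G protein signalling to adenylyl cyclase, followed in single medium spiny neurons (MSN) of the mouse striatum. They were chosen by name from the 25160 genes listed in the deposited table, and all 10 were listed. They comprise 5 alpha subunits (Gnal, Gnas, Gnao1, Gnai1 and Gnaq), 1 beta subunit (Gnb1), 1 gamma subunit (Gng7) and 3 adenylyl cyclases (Adcy5, Adcy3 and Adcy1). The question was how the stimulatory alpha subunit Gnal compares with its close relative Gnas in the MSN that carry the D1 or the D2 dopamine receptor.

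Cells were taken from the dorsomedial striatum of adult double-transgenic mice that were heterozygous for both a Drd1a-TdTomato and a Drd2-EGFP reporter, so every cell came from the same genotype. The reporters are BAC transgenes, in which the receptor gene's regulatory region drives a fluorescent protein, and EGFP driven this way also labels cholinergic interneurons, which carry the D2 receptor. The study's methods state that female mice were injected with a nuclear dye at the site before dissection. Single cells were sorted by FACS on fluorescence into plates, and cDNA from each was sequenced, giving 40 Drd1-labelled and 40 Drd2-labelled cells. Values are TPM, in which the reads of a gene are divided by its length and scaled to a fixed total per cell. The listed values did not sum to the same total in each cell. The methods state that the cells came from several animals, but the labels do not tie cells to them. Each subtype therefore counts as 1 sample made of many cells, no test was made, and spreads given are between cells.

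A heterotrimeric G protein is made of an alpha, a beta and a gamma subunit, and a receptor activates it by exchanging GDP for GTP on the alpha subunit. Stimulatory alpha subunits raise cyclic AMP through adenylyl cyclase, inhibitory ones lower it, and the Gq class acts on phospholipase C. Most cells use Gnas (Gαs) for the stimulatory step, whereas the striatum and the olfactory epithelium are known for Gnal (Gαolf). Striatal Gαolf pairs with Gng7 and acts on Adcy5. In the striatum this stimulatory step lies downstream of the D1 receptor in D1 MSN and of the adenosine receptor encoded by Adora2a in D2 MSN, and the D2 receptor acts through inhibitory alpha subunits.

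The markers followed the reporter labels with few exceptions. Drd1 was above 1 TPM in 38 of 40 D1 MSN and 3 of 38 D2 MSN, and Adora2a, an adenosine receptor of D2 MSN, in 1 and 31 of them. Drd2 exceeded 1 TPM in 26 D2 MSN and in 2 D1 MSN. A pair of Drd2-labelled cells had 307 and 347 TPM of Chat, the enzyme that makes acetylcholine, against a highest value of 14.7 in all other cells. These were set apart as cholinergic interneurons, leaving 38 D2 MSN. Summed MSN markers were above 100 TPM in 39 of 40 D1 MSN and all 38 D2 MSN. D1 MSN had 648 to 8657 genes above 1 TPM (median 5722) and D2 MSN 1215 to 7942 (median 4927.5). The cells lay on 3 plates, of which FACS051_5 (18 D1 and 16 D2 MSN) and FACS086_4 (21 and 19) held nearly all. Read depth is unknown from TPM. Among 10 genes that every cell uses, 5 were listed at 0 in between 1 and 5 of the 80 cells, so a 0 here is a listed value and not an absence.

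Gnal was found in nearly every MSN of both subtypes. In D1 MSN it ran from 0 to 414 TPM with a median of 110.8, and in D2 MSN from 0.134 to 315 TPM with a median of 151. It exceeded 1 TPM in 38 of 40 D1 MSN and 37 of 38 D2 MSN. The ranges overlapped except at the top, where 4 D1 MSN with 331 to 414 TPM lay above every D2 MSN. Mean levels were 129.7 and 143.8 TPM, a log2 fold of -0.15 for D1 over D2 MSN, taken between mean TPM plus 1. The fold was -0.48 within plate FACS051_5 and 0.11 within FACS086_4, so the plates differed in direction. The mean of Gnal was higher than that of 96.7% of listed genes in D1 MSN, and of 96.9% in D2 MSN. On GRCm38 the gene lies on chromosome 18 at 67088216 to 67226792 on the plus strand, and 7.63% of its exon bases are shared with Mppe1 on the opposite strand.

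Gnas differed from Gnal in being found in a minority of D1 MSN. It was listed at 0 in 31 of 40 D1 MSN and 15 of 38 D2 MSN. D1 MSN ran from 0 to 348 TPM with a median of 0, and D2 MSN from 0 to 779 TPM with a median of 13.5. It exceeded 1 TPM in 15% of D1 MSN (exact Clopper-Pearson 95% interval 5.71% to 29.8%) and in 57.9% of D2 MSN (40.8% to 73.7%). These intervals cover counting error only and did not overlap. How many of all listed genes have intervals apart was not computed. Means of 12.7 (D1) and 98.6 TPM (D2) gave a log2 fold of -2.86, although the ranges overlapped in full from 0 to the highest D1 cell.

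**Figure D1:**
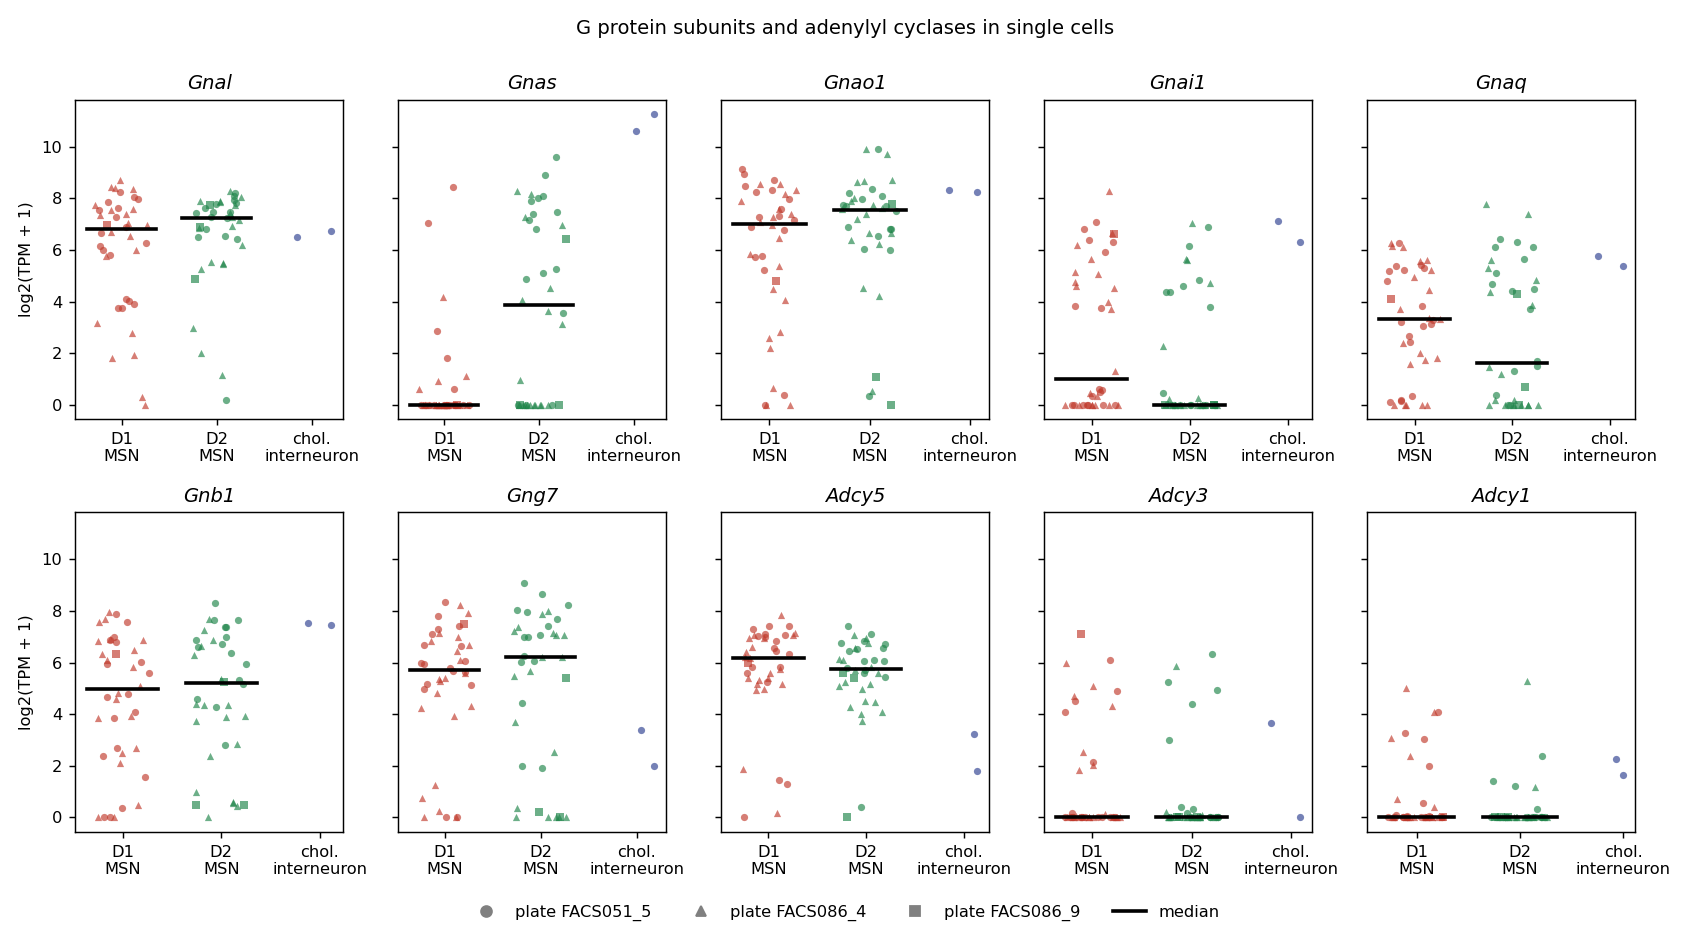
Each point is 1 cell, with log2(TPM + 1) on the vertical axis, the group on the horizontal axis, the plate by symbol and the median of each MSN subtype as a black line. Gnal lies high in both subtypes, whereas Gnas lies at 0 in 31 of 40 D1 MSN and is spread widely in D2 MSN.

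The Gnas difference had the same direction on both large plates, but its size was not the same. On FACS051_5, 13 of 16 D2 MSN and 4 of 18 D1 MSN were above 1 TPM, with means of 170.6 and 27.2 TPM and a log2 fold of -2.61. On FACS086_4 it was 8 of 19 D2 MSN and 2 of 21 D1 MSN, with means of 49.0 and 0.928 TPM and a log2 fold of -4.70. The D2 MSN with the larger share of Gnas cells were thus on the plate where D2 MSN had more genes, a median of 5923 genes against 4617. In D1 MSN the medians were 5109 and 5730 genes, in the opposite order to the share. Among cells with at least 4000 genes, Gnas was above 1 TPM in 12.1% of 33 D1 MSN and 73.1% of 26 D2 MSN, with a log2 fold of -4.38. The part of plate and of genes found in the difference was not tested further.

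A pair of cells carried most of the Gnas in the D1 group. The cells in wells C06 and D04 of FACS051_5 had 348 and 132 TPM and held 94.3% of the summed D1 value, and the next D1 cell had 16.9 TPM. Both stood apart in other genes. C06 had 297 TPM of Drd1 together with 3676 TPM of Penk, an enkephalin precursor typical of D2 MSN, against a highest Penk value of 500 TPM in the other 38 D1 MSN, and it was listed at 0 for Gng7 and Adcy5. D04 had 2.03 TPM of Drd1 against a median of 180 TPM, and its summed astrocyte markers were 2654 TPM against at most 17.6 TPM in the others. Its summed oligodendrocyte markers were 260 TPM, against at most 188 TPM in the others. Without both cells the D1 mean of Gnas was 0.760 TPM and the log2 fold -5.82. Whether these wells held 1 cell each was not tested. Summed D1 MSN markers were above 100 TPM in 3 of 38 D2 MSN. These were C05 and C09 of FACS086_4 and A12 of FACS086_9, with 1082, 192 and 1218 TPM of the D1 MSN marker Tac1. Their Gnas was 288, 125 and 0 TPM, and the fold without them was not computed.

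Set against each other, the stimulatory alpha subunits were nearly all Gnal in D1 MSN and a mixture in D2 MSN. Gnal made up 91.1% of the summed Gnal and Gnas TPM in D1 MSN and 59.3% in D2 MSN. Within plate FACS051_5 the shares were 81.4% and 49.3%, and within FACS086_4 they were 99.3% and 72.4%. Gnal was above Gnas in 36 of 40 D1 MSN (90%, 76.3% to 97.2%) and in 27 of 38 D2 MSN (71.1%, 54.1% to 84.6%), intervals that overlap. Both were above 1 TPM in 6 D1 and 22 D2 MSN, Gnal alone in 32 and 15, neither in 2 and 1, and Gnas alone in 0 of either. The Spearman rho of Gnal with Gnas was -0.10 over 40 D1 MSN, of which 31 were at 0 for Gnas, and 0.11 over 38 D2 MSN. The plates differed in sign, with rho of -0.51 on FACS051_5 and 0.24 on FACS086_4 in D1 MSN, and -0.24 and 0.13 in D2 MSN.

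**Figure D2:**
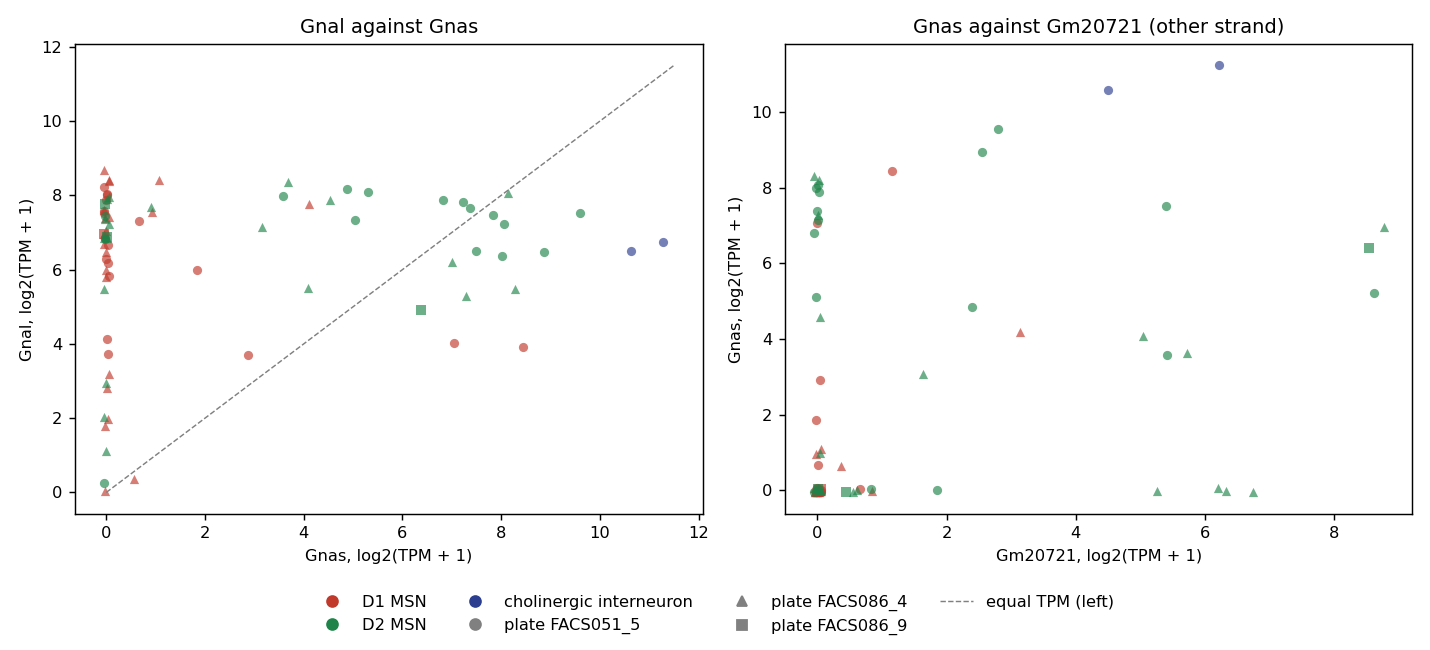
Each point is 1 cell, with log2(TPM + 1) on both axes, a small random shift to separate points, colour for the cell group and symbol for the plate. Left, Gnal against Gnas with the line of equal TPM, where 36 of 40 D1 MSN and 27 of 38 D2 MSN lie above it; right, Gnas against Gm20721, where 4 D2 MSN have Gm20721 above 10 TPM with Gnas at 0.

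A listed gene on the opposite strand, Gm20721, covers exons of Gnas, so its values are given beside those of Gnas. Gnas lies on the plus strand of chromosome 2 at 174284320 to 174346744, and Gm20721 on the minus strand at 174330319 to 174346712 (GRCm38). Gm20721 has 13 exons with 1484 bases, of which 1469 (99.0%) are also exon bases of Gnas. They are 13.1% of the 11186 exon bases of Gnas over all its transcripts. Gm20721 covers 97.5% of the coding bases of Gnas-207, a transcript with 11 exons, 29.7% of those of the long form Gnas-203, and 0 exon bases of the short Gnas-210. One shared exon, exon 3 of Gnas-207 (chr2:174341650-174341707, 58 bases, coding), is shown to make plain that each strand's sequence is the reverse complement of the other, so a read of this exon without strand fits both genes.
Gnas-207, plus strand: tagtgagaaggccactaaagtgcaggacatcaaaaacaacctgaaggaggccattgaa
Gm20721-201, minus strand: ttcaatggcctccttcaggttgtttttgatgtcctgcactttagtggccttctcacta
Both are given in the direction of their own transcript, as read from the GRCm38 genome with the GENCODE M21 exons. That the counting used strand is not given in the sources used here, and the methods describe no strand-specific step in making the libraries. Without strand the reads of the shared exons cannot be told apart. The listed values of Gnas and Gm20721 may then divide the same reads, which was not tested. The exons of the annotation that the authors used may differ.

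**Figure D3:**
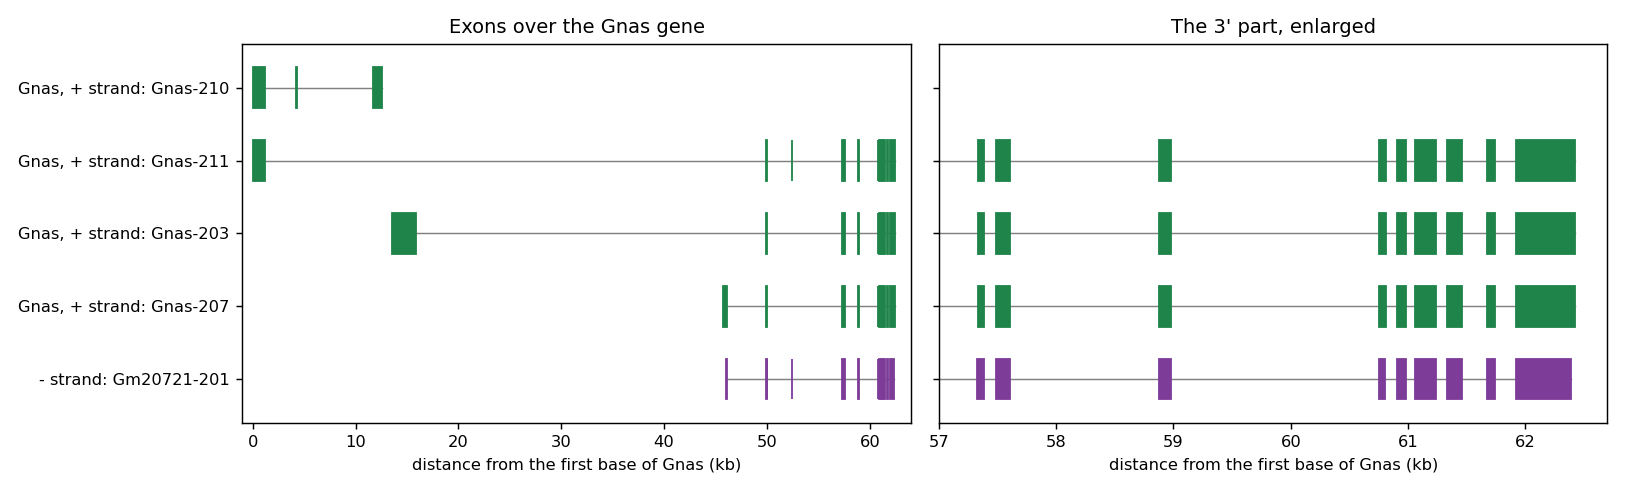
Exons (boxes) of 4 Gnas transcripts and of Gm20721 on the opposite strand, by distance from the first base of Gnas in kilobases, with the 3′ part enlarged on the right. The exons of Gm20721 lie over those of Gnas-207 from its first, in part, to its last. They also lie over the 3′ exons of Gnas-203 and Gnas-211, and over none of Gnas-210. Of the Gm20721 exon bases, 99.0% are Gnas exon bases.

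The listed value of Gm20721 was also higher in D2 MSN. It ran from 0 to 7.74 TPM in D1 MSN with a mean of 0.264 TPM, and from 0 to 419 TPM in D2 MSN with a mean of 44.4 TPM. It exceeded 1 TPM in 2 of 40 D1 MSN and 16 of 38 D2 MSN. Among D2 MSN, 11 had both genes above 1 TPM, 11 had Gnas alone, 5 had Gm20721 alone and 11 had neither. In 4 D2 MSN Gm20721 was above 10 TPM with Gnas listed at 0, and in 8 D2 MSN Gm20721 was listed at 0 with Gnas above 100 TPM. The sum of both genes averaged 13.0 (D1) and 143 TPM (D2), for a log2 fold of -3.36, and exceeded 1 TPM in 15% and 71.1% of cells. Read against this sum, Gnal made up 90.9% in D1 MSN and 50.1% in D2 MSN and was the higher of the 2 in 36 of 40 and 23 of 38 cells. Both genes had the higher mean in D2 MSN, so their sum had to keep the direction of the Gnas difference. Adding Gm20721 could likewise only lower the share of Gnal. The sum therefore does not show what the overlap does to the Gnas values, which was not tested.

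Among the inhibitory and Gq alpha subunits, Gnao1 had the highest level and Gnai1 the largest difference. Gnao1 (Gαo), the main inhibitory-class alpha subunit of brain, ran from 0 to 559 TPM in D1 MSN (median 129) and from 0 to 962 TPM in D2 MSN (median 187). Its means of 158.7 and 224.3 TPM gave a log2 fold of -0.50, with -0.08 and -1.03 within FACS051_5 and FACS086_4. Gnai1 (Gαi1), which lowers cyclase activity, ran from 0 to 313 TPM in D1 MSN (median 0.984) and from 0 to 130 TPM in D2 MSN (median 0). Its means were 32.3 and 14.4 TPM, a log2 fold of 1.11, with 0.56 and 1.24 within the plates. Gnai1 exceeded 1 TPM in 20 of 40 D1 MSN (counting interval 33.8% to 66.2%) and in 12 of 38 D2 MSN (interval 17.5% to 48.6%), so the intervals overlapped. The fold rests in part on 1 D1 cell with 313 TPM, without which it was 0.76, a value chosen after the data were seen. Gnaq (Gαq), which activates phospholipase C, ran from 0 to 75.9 TPM in D1 MSN and from 0 to 220 TPM in D2 MSN. Its means of 20.2 and 27 TPM gave a fold of -0.40, yet its medians of 8.91 and 2.07 TPM and its counts above 1 TPM, 31 of 40 and 23 of 38 cells, lay the other way. The intervals of these counts overlapped (61.5% to 89.2% and 43.4% to 76.0%). On FACS051_5 Gnaq exceeded 1 TPM in 77.8% of D1 and 81.2% of D2 MSN, with medians of 8.48 and 20.7 TPM, so no one direction held for Gnaq.

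The beta and gamma partners were found in most cells of both subtypes. Gnb1 ran from 0 to 246 TPM in D1 MSN (median 30.3) and from 0 to 319 TPM in D2 MSN (median 36.1). Its means of 63.2 and 68.4 TPM gave a log2 fold of -0.11, but -0.91 within FACS051_5 and 0.65 within FACS086_4. Gng7, the gamma subunit that the Gαolf trimer uses in striatum, ran from 0 to 323 TPM in D1 MSN (median 51.8) and from 0 to 545 TPM in D2 MSN (median 73.4). Its means were 81.3 and 112 TPM, a log2 fold of -0.46, with -0.90 and -0.19 within the plates. It exceeded 1 TPM in 34 of 40 D1 MSN and 30 of 38 D2 MSN. All 16 D2 MSN of FACS051_5 had Gng7 above 1 TPM, against 13 of 19 on FACS086_4.

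Adcy5 was the leading cyclase of both subtypes. It ran from 0 to 231 TPM in D1 MSN (median 71.8) and from 0 to 169 TPM in D2 MSN (median 53.0), with means of 80.7 and 62.5 TPM. The log2 fold was 0.36, with 0.14 and 0.51 within the plates, and 38 of 40 D1 MSN and 36 of 38 D2 MSN were above 1 TPM. Its quartiles, 38.4 to 128 TPM in D1 and 33.8 to 92.5 TPM in D2 MSN, overlapped. Adcy5 made up 77.8% of the summed TPM of the 8 listed cyclases in D1 MSN and 78.4% in D2 MSN. Adcy3, the cyclase of the olfactory cilia, had a median of 0 in both subtypes, highest values of 138 and 79.1 TPM, and 13 of 40 and 6 of 38 cells above 1 TPM. Its mean was 10.7 in D1 and 6.06 TPM in D2 MSN, with folds of -0.44 and 1.01 within the plates. Its pooled fold of 0.72 became 0.15 without plate FACS086_9, whose only D1 MSN had the highest Adcy3 value. Of the Adcy3 gene, 22.1% of exon bases are shared with Cenpo on the opposite strand. Adcy1, a calcium-stimulated cyclase, averaged 2.38 and 1.24 TPM and was above 1 TPM in 8 D1 and 5 D2 MSN.

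**Figure D4:**
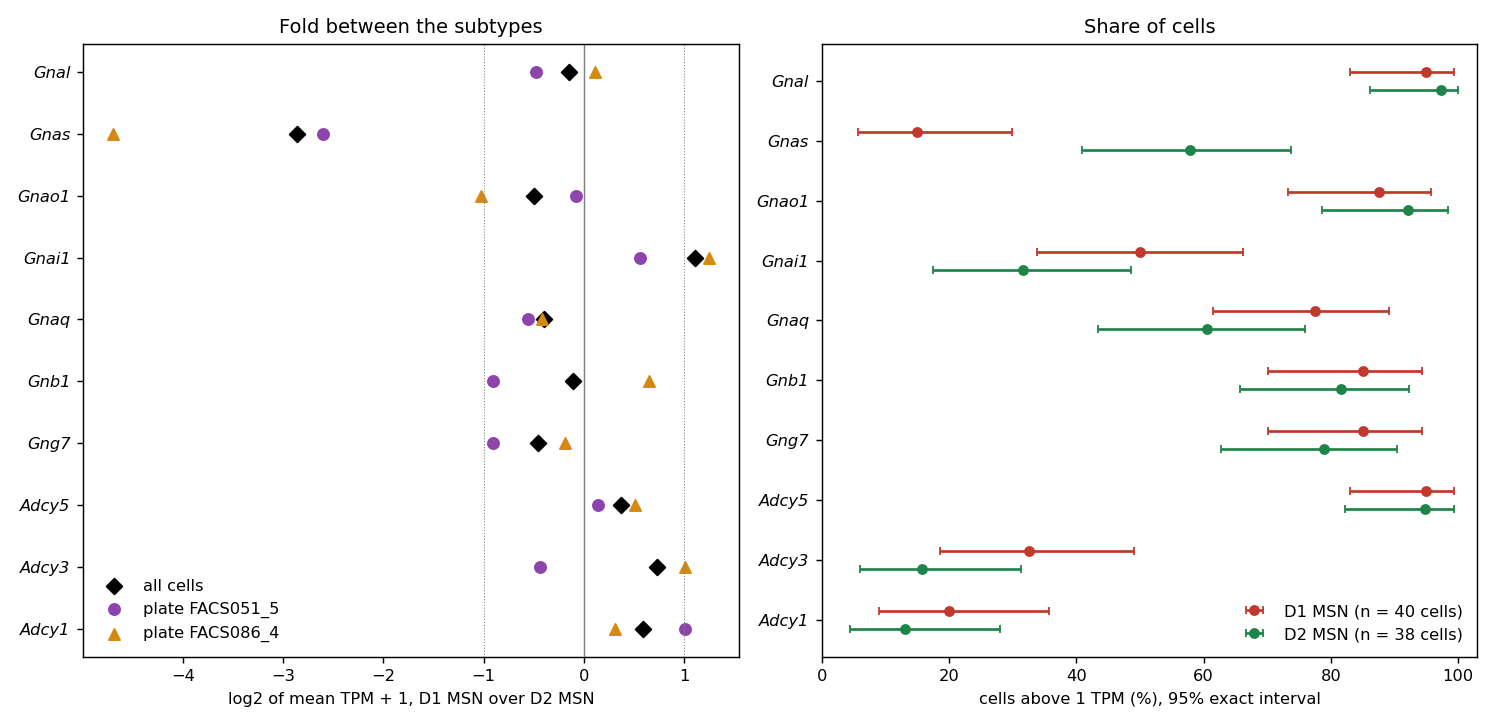
Left, log2 fold of mean TPM + 1 for D1 over D2 MSN in all cells and within the 2 large plates, with dotted lines at 1 and -1; right, percent of cells above 1 TPM with exact 95% intervals for counting error. Gnas lies below -1 in all 3 values, and Gnai1 passes 1 in all cells and on 1 plate. Among the genes shown, the intervals of the subtypes are apart for Gnas alone, and the share of all listed genes with intervals apart was not computed.

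Of the 10 genes, 1 had a log2 fold above 1 (Gnai1) and 1 below -1 (Gnas). Gnai1 stayed above 1 in 8 of 14 alternatives and ran down to 0.73. Over the 19966 listed genes above 0 in both subtypes, 14.2% were above 1 and 10% below -1. Of the 8 genes averaging at least 10 TPM the same 2 passed, beside 11.7% and 8.85% of 7500 such genes. The counts of 1 in 10 were thus near those over all genes, and a fold past 1 or -1 is common in these data. The share of genes with a fold as low as that of Gnas was not computed. The median fold of the 10 genes was -0.13 (-2.86 to 1.11), against 0.05 for all tested genes.

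In order of mean level, Gnao1, Gnal and Gng7 came first in both subtypes and Adcy3 and Adcy1 last. Gnas was 8th in D1 MSN and 4th in D2 MSN, while Adcy5 was 4th and 6th. The D1 place of Gnas rested on the cells in C06 and D04, without which its mean of 0.760 TPM was the lowest of the 10 genes, below Adcy1 with 2.5 TPM. Each gene differed from the next in the order by less than the SD over cells of either gene, other than Adcy3 and Adcy1 in D1 MSN. Among the listed alpha subunits, Gnao1 made up 36.8% of the summed TPM in D1 MSN and 37.7% in D2 MSN, Gnal 30.1% and 24.2%, and Gnas 2.95% and 16.6%. Without C06 and D04 the D1 share of Gnas was 0.181%. Thus Gnao1 and Gnal held most of the alpha subunit TPM in both subtypes.

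The Gαolf set of Gnal, Gng7 and Adcy5 was found together in most cells. All 3 genes exceeded 1 TPM in 34 of 40 D1 MSN (85%, counting interval 70.2% to 94.3%) and in 28 of 38 D2 MSN (73.7%, interval 56.9% to 86.6%). On FACS051_5 it was 16 of 18 D1 and 14 of 16 D2 MSN, and on FACS086_4 17 of 21 and 13 of 19. Most cells that lacked the set lacked Gng7. A cell such as B06 of FACS086_4, with 414 TPM of Gnal and 40.9 TPM of Adcy5 but Gng7 at 0, had 5256 genes above 1 TPM. The cell with 648 genes had none of the 10 genes above 1 TPM, and cells had a median of 7 in both subtypes. The number of these genes per cell followed the number of all genes found, with a rho of 0.61 over 40 D1 MSN and 0.79 over 38 D2 MSN.

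**Figure D5:**
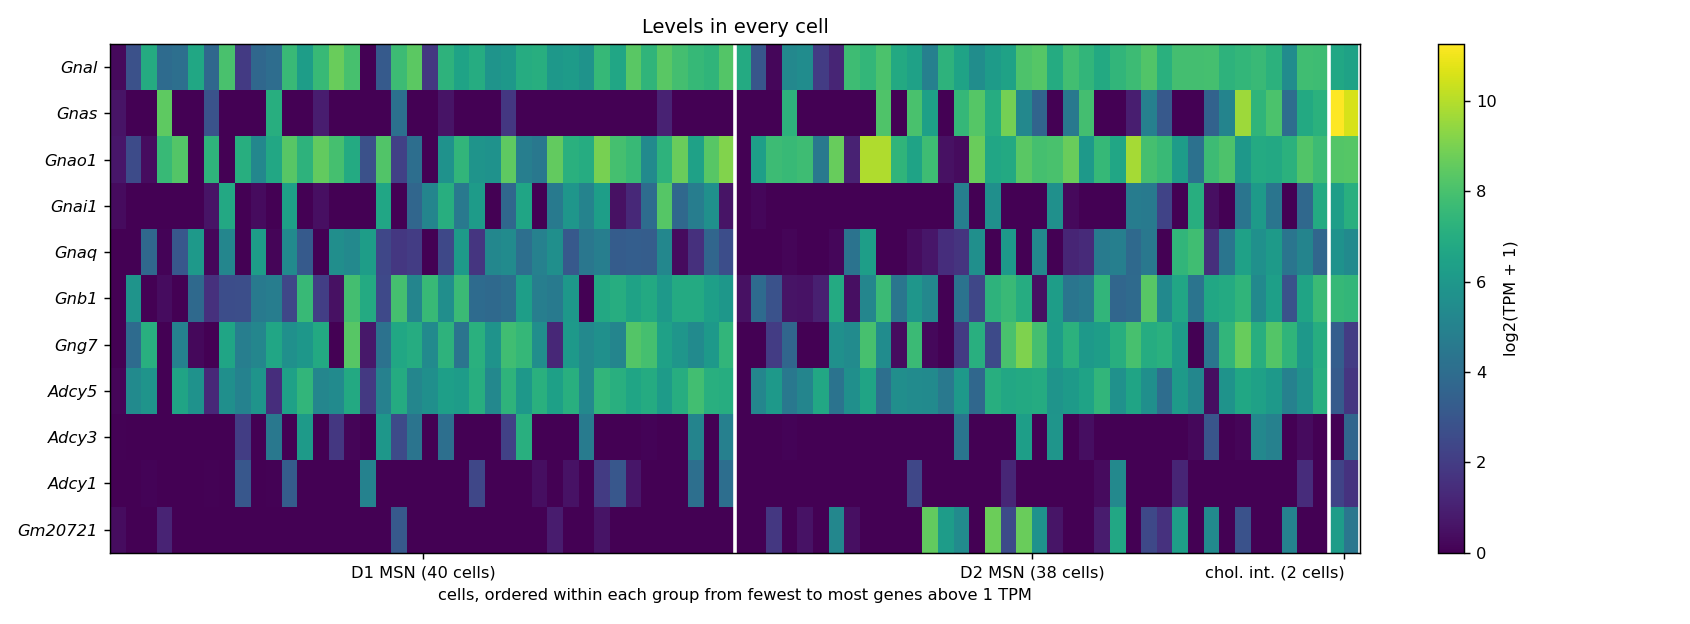
Each column is 1 cell and each row 1 gene, coloured by log2(TPM + 1), with cells ordered within each group from the fewest to the most genes above 1 TPM. Gnal, Adcy5 and Gnao1 are filled across both subtypes, Gnas and Gm20721 are mostly empty in D1 MSN, and the interneurons at the right have the highest Gnas.

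Levels of the 3 genes were compared between cells by rank. Gnal and Gng7 had a rho of 0.56 in D1 and 0.36 in D2 MSN, and Gnal and Adcy5 0.44 and 0.21. In D1 MSN the values within the plates were near these, at 0.55 and 0.54 for Gng7 and 0.42 and 0.46 for Adcy5 on FACS051_5 and FACS086_4. In D2 MSN they were 0.09 and 0.36 for Gng7 and -0.05 and 0.25 for Adcy5, so by rank the relation was not found on FACS051_5. In the same D2 MSN of FACS051_5 the Pearson r of log2(TPM + 1) was 0.59 for Gng7 and -0.08 for Adcy5. Beside the values by rank, the rho with the number of genes found was 0.45 and 0.52 for Gnal, 0.62 and 0.27 for Adcy5, and -0.24 and 0.34 for Gnas. Among 3448 genes above 1 TPM in at least 50% of 78 MSN, the patterns most like Gnal by rho included Ndrg4 (0.57) and Paip2 (0.51). For Adcy5 they were Camk2b (0.59), Arf3 (0.58) and Prkcb (0.57). For Gnas they were Penk (0.50), Fez1 (0.43) and Gm10275 (0.43). Penk averaged 120 TPM in D1 and 12438 TPM in D2 MSN, and within the subtypes its rho with Gnas was 0.04 and 0.33.

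Of a wider list of 54 genes of these families and their modulators, 48 were listed. The counts below stand beside 14.2% above a log2 fold of 1 and 10% below -1 over all genes above 0 in both subtypes. Among 13 alpha subunits above 0 in both subtypes, Gnai1 was above a fold of 1 and Gnas and Gnai3 below -1. Gnai3 exceeded 1 TPM in 6 of 40 D1 and 6 of 38 D2 MSN, with a highest D2 value of 117 TPM. Its log2 fold was -1.41, larger in size than that of Gnai1, with -1.83 and -0.90 within the plates. Other alpha subunits were Gnaz (29.8 and 24.0 TPM), Gna11 (22.6 and 27.6 TPM) and Gnai2 (16.5 and 19.9 TPM). Gnb2 was the beta subunit with the highest mean, 496 and 452 TPM, above Gnb5 with 178 and 276 TPM. Gnb4 was the only 1 of 5 beta subunits past a fold of 1, with a log2 fold of 1.5. It exceeded 1 TPM in 22 of 40 D1 MSN and 9 of 38 D2 MSN, with means of 29.7 and 9.87 TPM and folds of 2.43 and 2.45 within the plates. Without its highest D1 cell, 383 TPM, the fold of Gnb4 was 0.99. Among the 9 gamma subunits above 0 in both subtypes, Gng13, Gng2 and Gng12 were above a fold of 1, beside 14.2% of all genes. Gng2 and Gng12 rested on 1 D1 cell each, with 316 and 147 TPM, and without these cells their means were 0.782 and 0.152 TPM, against 0.781 and 0.042 TPM in D2 MSN. Gng13 averaged 164.5 and 68.7 TPM (log2 fold 1.25, with 0.99 and 1.58 within the plates) and was above 1 TPM in 27 and 15 cells. Its fold without the highest D1 cell was 1.01. In D1 MSN its mean was above that of Gng7, and in D2 MSN below. Gng10 (77.3 and 94.8 TPM) and Gng3 (76.1 and 72.9 TPM) followed. None of the 8 listed cyclases passed a fold of 1. After Adcy5, Adcy3 and Adcy1, the cyclases with the highest means were Adcy9 (8.40 and 9.24 TPM), Adcy7 (0.751 and 0.318 TPM) and Adcy6 (0.376 and 0.259 TPM). Of 7 chaperones and modulators above 0 in both subtypes, Gpsm2 alone passed, with a log2 fold of -1.02. It exceeded 1 TPM in 3 of 40 D1 and 4 of 38 D2 MSN, and its highest value, 87.3 TPM, was in a D2 MSN of plate FACS086_9. Within the large plates its folds were -0.125 and -0.68.

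The pair of cholinergic interneurons had another make-up of these genes. Gnas was 2450 and 1544 TPM in them, above the highest MSN value of 779 TPM, and Gnal 105 and 89.4 TPM, within the MSN range. Gnal was therefore 4.63% of the sum of both. Gng7 was 9.35 and 2.95 TPM and Adcy5 8.47 and 2.47 TPM, against MSN medians of 62.6 and 59.2 TPM. Of 78 MSN, 18 had Gng7 and 7 had Adcy5 at or below the higher interneuron. Gnao1 was 302 and 316 TPM and Gnb1 186 and 174 TPM. These cells had 10251 and 10912 genes above 1 TPM, more than any MSN, both lay on FACS051_5, and Gm20721 was 73.1 and 20.9 TPM in them.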

How the data were processed

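The deposited values, made by the authors, were TPM for 25160 listed genes in each cell, and some known genes were not listed. The listed values summed to 506588 to 958040 TPM in D1 MSN and 592060 to 931221 TPM in D2 MSN. The submitters' processing notes and the paper's methods name STAR 2.5.0, featureCounts 1.5.1 and annotation GRCm38.75. How the TPM were made is not given in the sources used here. All 80 cells were kept. The study counts slightly fewer usable cells and the labels do not mark which. Drd2 cells above 100 TPM of Chat were set apart (2 cells), leaving 78 MSN. Cells were grouped by the reporter in the labels, and no test was made because no animal is named. The genes, lists and limits were chosen with earlier results of these data known. The log2 fold was taken between group means plus 1 TPM, a cell was counted above 1 TPM, and a fold past 1 or -1 was counted. Intervals are Clopper-Pearson at 95%. Steps were tested on simulated data. Depth per cell is unknown, so no detection limit can be given. Named genes were the 10 members, the 3 other genes of highest mean in each family, family genes past the fold with a mean of at least 10 TPM, and the 3 genes most alike by Spearman rho to Gnal, Gnas and Adcy5, of which 1 is not reported here. The 11 marker lists were read as summed TPM. Exons and positions are from GENCODE M21 on GRCm38. The analysis ran in Python 3.11.15 with scipy 1.17.1, pandas 2.3.3, numpy 2.4.6 and, for figures, matplotlib 3.10.9.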

Additional observations from a re-analysis of the deposited data

Results flagged for a closer look

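In the Drd2-labelled cells that were left out as cholinergic interneurons, 3 genes of these families were above every one of the 78 MSN in both cells. Gnas was 2449.58 TPM in the cell of well B02 and 1544.38 TPM in that of well A08 of plate FACS051_5, against at most 779 TPM in MSN. Gng3, a gamma subunit of neurons, was 697.15 and 466.519 TPM against at most 285 TPM. Adcy2, a cyclase that beta-gamma subunits stimulate, was 259.878 and 218.884 TPM against at most 6.75 TPM, with 2 MSN above 1 TPM. The comparison of the subtypes uses neither cell. Both had more genes above 1 TPM than any MSN, and the part of this in the levels was not tested.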

How the results depend on the processing

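No paired analysis was possible because the replicate numbers were given in accession order and no result comes from a test. Folds within each large plate stand beside the values. Of 411 values recomputed under alternatives, 382 stayed within the limit set for their kind and 29 moved past it. The limit was the SD between the 2 large plates for folds and Gnal percents. For percents of cells it was the counting interval, and for the count of genes a set ratio. An SD of 2 values can be wide: it was 1.10 for Gnb1, so 0.80 without plate FACS051_5 stayed within it. Of the folds past 1 or -1, 0 changed sign. The log2 fold of Gnas (-2.86) kept its direction in 14 of 14 alternatives, from -5.82 to -2.26. Some of these could only move it further from 0, so they do not bear on its direction. They were a pseudocount of 0.1 TPM, leaving out C06, D04 or both, keeping the interneurons, and adding Gm20721. A pseudocount of 10 TPM gave the -2.26, and no pseudocount added to both means can change the sign of a fold. The fold of Gnas was -4.65 without plate FACS051_5 and -4.38 with only cells of at least 4000 genes. Without the D1 cells in C06 and D04 it was -5.82. The fold of Gnal ran from -0.53 to 0.12. The number of genes past a fold of 1 fell from 2 to 1 with a pseudocount of 10 TPM, without plate FACS086_9, with the interneurons kept, with only cells of at least 4000 genes, and without the D1 cell with the highest Gnai1, as Gnai1 (0.73 to 1.56) was past 1 in 8 of 14 alternatives. It was 3 without plate FACS051_5, where Adcy3 reached 1.96. Without FACS086_4 it was 2, with Adcy1 at 1.04 and Gnai1 at 0.97. With the interneurons kept, the Gnal percent in D2 MSN was 42.2. Folds of Gnal, Gnao1, Gnaq, Gnb1 and Gng7 had the other sign in at least 1 alternative. Leaving out C06, C06 with D04 or the highest cell of a gene and adding Gm20721 to Gnas were chosen after the data were seen. TPM keep no depth, a mean over cells can rest on 1 cell, and the labels do not tie cells to animals.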
